A study of Rattus norvegicus with 12 samples.

Results

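The testis transcriptome of rats after 14 days of combined stress was compared with that of control rats, using the 3 libraries labelled RS+IS_14D and the 3 labelled Control, which are 6 of the 12 libraries of the series. All 12 libraries came from testis of male Sprague-Dawley (SD) rats, with ribosomal RNA removed before sequencing. The labels give an age of 8 weeks for all of them. The study's methods list this age ahead of a period of feeding and the days of treatment. The age at sampling is thus not given and may differ between groups, which could not be told apart from the stress. RS+IS stands for restraint stress followed by an ice-water swim. Each day the rats were held on their backs for 6 h and then swam for 5 min. Control rats stayed unrestrained in their cages without food and water over the same periods, and the labels give a single control group for all durations. The other 6 libraries, from rats stressed for 3 or 21 days, served only for the direct comparisons at the end. The labels number the samples without saying whether each is a separate animal, so the p-values measure the spread between these samples.

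The members described are 578 germ-cell marker genes and, behind them, every transcript measured. The tables list 31715 transcripts without gene names. Each marker was found in them by matching its counts in the study's marker table, which took 781 transcripts, and together with the remaining single transcripts this made 31512 features. The marker table assigns 12 markers to spermatogonia, 181 to spermatocytes and 385 to spermatids, and all 578 passed the filter on low counts, as did 21058 features in all. Counts are given as CPM, the count relative to a library size that TMM scaling corrects for composition. Fold changes are log2 values of 14-day over control, with a standard error (SE) from the fit.

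Spermatogenesis runs in the seminiferous epithelium from dividing spermatogonia, through spermatocytes that pass meiosis, to haploid spermatids that build the acrosome and flagellum and replace histones with transition proteins and protamines. STRA8 acts in the entry into meiosis, SYCP3 forms the axes of meiotic chromosomes, PIWIL1 binds piRNAs in spermatocytes and round spermatids, and TNP1 and TNP2 are the transition proteins. In RNA from a whole testis, fewer cells of a type and less RNA per cell cannot be told apart.

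The libraries held 23908000 to 28416800 estimated counts, and the markers took 13.8% to 15.5% of them. Markers of all 3 germ-cell classes were detected in every library, and Tnp1, Odf1 and Oaz3 of spermatids had the most counts. Markers of Sertoli, Leydig, peritubular, endothelial and blood cells were not analysed here, because no source used here pairs the transcripts with gene names, so the share of somatic cells in each library is unknown. Control 1 stood apart from the other libraries. It lay at -78.0 on the first principal component, against -3.64 to 24.7 for the other 5. TPM is a count relative to transcript length and library total. Its sum over the spermatogonial markers was highest in control 1, at 746 TPM against 509 to 590 in the other 5. The sum over the spermatid markers was lowest there. Not every spermatogonial marker was raised in control 1, since Stra8 and Ccne2 had their lowest control value in that library. The class, role and stage medians, and the fold changes that moved most, are given with and without control 1.

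Across all features no gene or transcript passed an adjusted p of 0.05 in edgeR's quasi-likelihood test, and the smallest adjusted p was 0.0639. At an unadjusted p under 0.05, 2538 features differed, or 12.1% of those tested, of which 1515 were higher (7.19%) and 1023 lower (4.86%) after 14 days. The 3 values of each group did not overlap in 20.2% of features, 10.8% higher and 9.32% lower. DESeq2 gave 360 features an adjusted p under 0.05, or 2.13% of the 16890 to which it gave one, 5 of them markers, and 8.75% an unadjusted p under 0.05. The differences were small. The median size of a log2 fold change was 0.16 over all features and 0.09 over the markers, and no marker exceeded 0.71.

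Larger differences occurred among transcripts without a name, where 268 features had both an unadjusted p under 0.05 and a log2 fold change of more than 1 in size. The transcripts named here were picked for the largest fold changes among those with a low unadjusted p in edgeR and groups apart. Their separation and p-values follow from that choice and give no further support. Each had 0 counts in a whole group and passed the filter on low counts through the other group alone. Transcript ENSRNOT00000060327.3 had 148, 92 and 136 counts in the controls and 0 in each 14-day library. Its mean control level was 40.6 times a floor of 3 counts per library (0.114 CPM), with an adjusted p of 0.0639 in edgeR. The same transcript had 0, 161 and 105 counts in the 3-day libraries and 0, 93 and 71 in the 21-day libraries. In the other direction, ENSRNOT00000080590.1 had 0 counts in each control and 88, 82 and 97 counts after 14 days. Its mean 14-day level was 30.7 times the same floor, also with an adjusted p of 0.0639 in edgeR. It had 122, 0 and 0 counts in the 3-day libraries and 18, 0 and 0 in the 21-day libraries. The next in each direction were ENSRNOT00000009377.7, with 12, 24 and 67 counts in the controls and 0 after 14 days, and ENSRNOT00000057051.4, with 0 in the controls and 90, 26 and 54 after 14 days. Neither passed the adjusted threshold in edgeR (0.229 and 0.183). Of all 31715 transcripts, 5 had at least 10 counts in every control and 0 in every 14-day library. The reverse held for 7. The 3-day and 21-day libraries were left out of these counts, and some of these transcripts had counts there.

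Median fold changes were negative for spermatogonia and spermatocytes and positive for spermatids. All 12 spermatogonial markers had a negative fold change, with a median of -0.26, against -0.01 over all features tested. Of these, 4 were lower at an unadjusted p under 0.05 (33.3%, against 4.86% of all features) and 8 had 14-day values entirely below the controls (66.7%, against 9.32%). Both counts include Stra8, which met neither criterion with the restored counts described below. Of the 181 spermatocyte markers, 123 were negative and 58 positive, with a median of -0.03. Here 5 were lower (2.76%, under the 4.86% of all features) and 0 higher at an unadjusted p under 0.05, with 16 entirely below (8.84%, near the 9.32% of all features) and 3 entirely above the controls. Of the 385 spermatid markers, 335 were positive and the median was 0.10. Among them 41 were higher (10.6%, against 7.19% of all features) and 2 lower at that p, with 53 entirely above (13.8%, against 10.8%) and 3 entirely below the controls. No marker of any class had an adjusted p under 0.05 in edgeR, and the smallest was 0.159.

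**Figure D1:**
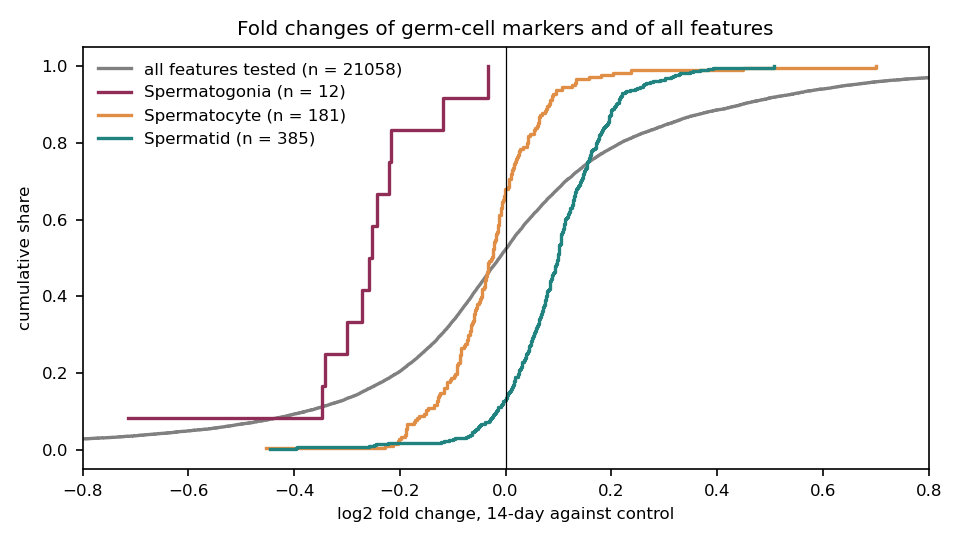
Cumulative share of features (vertical axis) at or below each log2 fold change of 14-day over control (horizontal axis, cut at both ends), for the 21058 features tested and for the 12, 181 and 385 markers of each class. The spermatogonial curve lies left of 0 throughout, and the spermatid curve is shifted right, with a median of 0.10.

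The class levels in single libraries show which samples carried these medians. The mean log2 CPM of the spermatogonial markers was 4.98, 4.65 and 4.68 in controls 1 to 3, and 4.53, 4.51 and 4.52 in the 14-day libraries. All 14-day libraries were below all controls, with control 1 far above the rest. For spermatids the mean log2 CPM was 6.998, 7.22 and 7.14 in the controls and 7.23, 7.17 and 7.26 after 14 days, so the groups overlapped and control 1 was the lowest. For spermatocytes it was 7.09, 7.26 and 7.19 against 7.14, 7.19 and 7.13, with the 14-day values inside the range of the controls. Without control 1 the medians were -0.13 for spermatogonia, -0.07 for spermatocytes and 0.03 for spermatids, and without control 2 the spermatocyte median was positive at 0.01. Of the markers that differed at an unadjusted p under 0.05, 41 of 52 were higher (78.8%), against 59.7% over all features that differed. Without control 1 there were 27 higher and 24 lower (52.9% higher, against 63.1% over all features), and in a fit of the markers alone, where scaling, dispersion and the features tested all came from them, there were 37 higher and 40 lower (48.1% higher). Without control 2 it was 103 higher and 15 lower (87.3%), and without 14-day replicate 3 it was 20 and 9 (69.0%). Spermatid markers higher at that p numbered 41 with all libraries, 98 without control 2, 27 and 25 without controls 1 and 3, and 16 and 19 without 14-day replicates 1 and 3. Spermatocyte markers lower numbered 5 with all libraries, 20 without control 1 and 2 without 14-day replicate 1.

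**Figure D2:**
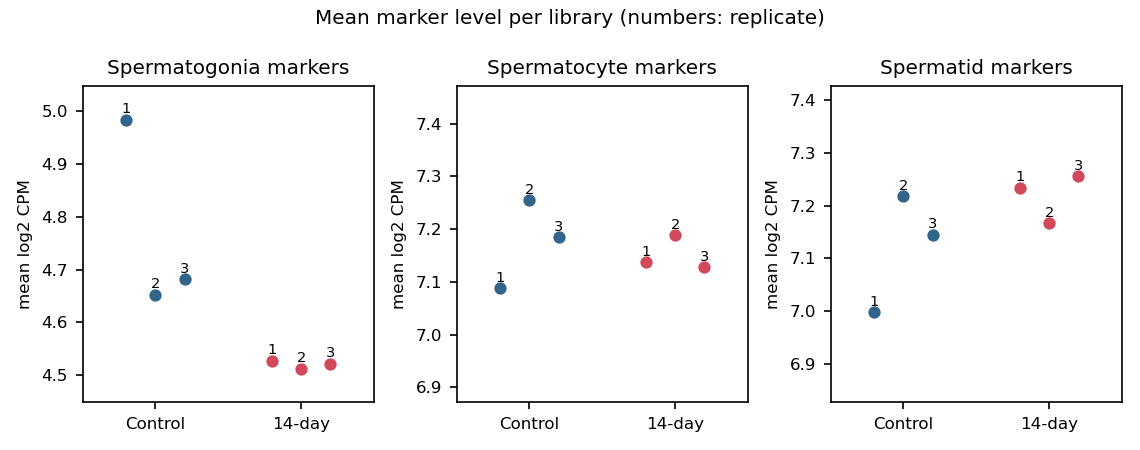
Mean log2 CPM (vertical axis) of the markers of each class in the 3 control and the 3 14-day libraries, 1 point per library with its replicate number, on vertical axes of equal length that do not start at 0. The 14-day libraries lie below every control for spermatogonia, while the spermatocyte and spermatid groups overlap and control 1 is at the edge of each panel.

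Stra8 and Piwil1 need a caution before their values are read. In each library the deposited TPM of a transcript can be recomputed from its estimated count and effective length, and for transcripts with more than 1 count the 2 values differed by at most 0.00097%. In the 3 14-day libraries Stra8 and Piwil1 were the 2 exceptions. The TPM of Stra8 was 9.81, 10.6 and 9.73, whereas its counts corresponded to 10.7, 10.2 and 10.96 TPM, a deviation of -8.14%, 3.74% and -11.2%. The deviations of Piwil1 were -8.71%, 5.41% and -9.60%. In the controls both genes followed the rule of the other transcripts. The 14-day TPM totals also fell short of the common total of that scale by 12.01, 9.999 and 18.0, and those of the controls by at most 0.0095. The cause was not tested.

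Stra8, taken from the deposited counts, was at 8.73, 9.23 and 8.999 CPM in the controls and 7.35, 6.97 and 7.57 CPM after 14 days. The groups did not overlap, and the log2 fold change was -0.30 (SE 0.11, unadjusted p = 0.025, adjusted p = 0.368 in edgeR). The controls held 243, 238 and 246 whole counts, while the 14-day counts were 182.64, 197.61 and 181.24. When the missing TPM was returned to the 2 genes in whole units, only 1 of the 13, 11 and 19 possible divisions gave Stra8 a whole count (within 0.005), namely 202, 205 and 227 counts. The number of markers lower at an unadjusted p under 0.05 was 10 with the restored and 11 with the deposited counts. These restored counts are 8.12, 7.22 and 9.50 CPM, where the 3rd 14-day library was above all controls. The log2 fold change was then -0.12 with an adjusted p of 0.718 in edgeR. With counts computed back from the deposited TPM it was -0.38, with an adjusted p of 0.295 in edgeR.

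Piwil1 was at 387, 453 and 426 CPM in the controls and 393, 345 and 420 CPM after 14 days. The groups overlapped, and the log2 fold change was -0.13 (SE 0.09, adjusted p = 0.578 in edgeR). With the restored counts of 9777, 11302 and 10241 it was -0.05, and with counts computed back from the TPM it was -0.20. All 3 ways of counting gave a negative sign, and no adjusted p was under 0.05 in edgeR (0.777 for the restored and 0.369 for the TPM-derived counts, the latter with an unadjusted p of 0.0261).

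**Figure D3:**
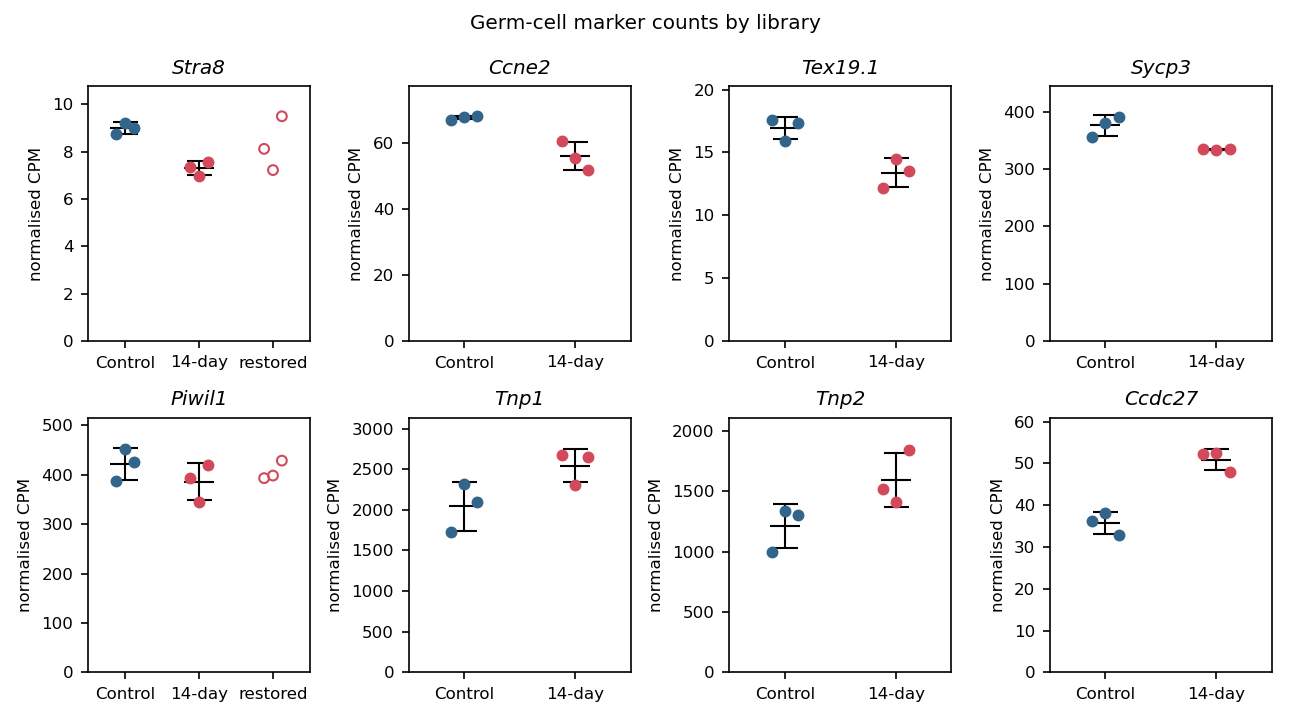
Normalised CPM (vertical axes from 0) of 8 markers in the 3 control (blue) and 3 14-day libraries (red), 1 point per library, with the mean and SD as black bars; open points show the restored 14-day counts of Stra8 and Piwil1. Ccne2, Tex19.1 and Sycp3 lie lower and Tnp2 and Ccdc27 higher in all 14-day libraries, and Tnp1 overlaps by 1 library. The restored Stra8 points lie on both sides of the control range and none within it.

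Among the other spermatogonial markers, Ccne2 gave the smallest p. Ccne2 encodes cyclin E2, which drives entry into DNA replication. It was at 67.0, 67.8 and 68.0 CPM in the controls and 60.6, 55.6 and 51.9 CPM after 14 days (log2 fold change -0.27, SE 0.07, unadjusted p = 0.00591, adjusted p = 0.267 in edgeR). Every 14-day library was below the narrow control range. Tex19.1, a germ-cell gene that acts in transposon control and meiosis, was at 17.6, 15.9 and 17.3 CPM against 12.1, 14.4 and 13.6 CPM (log2 fold change -0.34, SE 0.10, unadjusted p = 0.00974, adjusted p = 0.299 in edgeR). Its groups did not overlap either. Hspa5, the endoplasmic reticulum chaperone BiP and the marker of this class with most counts, was at 725, 611 and 611 CPM against 563, 596 and 517 CPM. The groups were apart by a small margin, the log2 fold change was -0.22 with an unadjusted p of 0.0486 in edgeR, and it was -0.12 without control 1.

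The fold changes of several spermatogonial markers rested on control 1. Cited1, a transcriptional coactivator, was at 48.8 CPM in control 1 and 19.2 and 19.8 CPM in the other controls, against 18.6, 17.9 and 17.1 CPM after 14 days. Its log2 fold change of -0.71 became -0.12 without control 1. Nucks1, a chromatin protein, went from -0.35 to -0.15 in the same way, and Rac1, a small GTPase, from -0.25 to -0.10. Cdk2ap2 went from -0.24 to -0.06. Ccnd1, cyclin D1, had -0.22 with all libraries and 0.16 without control 1. The remaining markers were Elavl2, an RNA-binding protein (-0.26), Slc25a31, the germ-cell ADP/ATP carrier (-0.12), and Atad5, which unloads the replication clamp (-0.03), and none of these reached an unadjusted p of 0.05. With each of the 6 libraries left out in turn, the unadjusted p in edgeR ranged from 0.00299 to 0.0216 for Ccne2, from 0.00908 to 0.0363 for Tex19.1 and from 0.027 to 0.076 for Stra8, which was above 0.05 in 4 of the 6 fits. For Stra8 it was also above 0.05 with the replicate numbers as a block (0.0562) and in DESeq2 (0.0619).

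Among spermatocyte markers the few that differed at an unadjusted p under 0.05 were all lower. Sycp3 was at 356, 380 and 391 CPM in the controls and 334, 332 and 334 CPM after 14 days (log2 fold change -0.17, SE 0.06, unadjusted p = 0.0189, adjusted p = 0.344 in edgeR). The 14-day values lay close together and below each control. Tomm22, a receptor for protein import into mitochondria, was at 61.9, 61.7 and 63.5 CPM against 54.1, 54.2 and 54.2 CPM (log2 fold change -0.20, adjusted p = 0.267 in edgeR). Cox7b2, a germ-cell subunit of cytochrome c oxidase, was at 260, 277 and 268 CPM against 239, 227 and 235 CPM. Its groups did not overlap, and the log2 fold change was -0.20 with an adjusted p of 0.284 in edgeR and 0.0196 in DESeq2. Rdh11, a retinoid reductase, had a log2 fold change of -0.17, and Psma8, a testis subunit of the proteasome, of -0.15.

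Other spermatocyte markers whose groups were apart had unadjusted p-values above 0.05. The lowest were the calcineurin subunit Ppp3ca at -0.21, Glipr1l2 at -0.20 and the integrin Itgae at -0.19, and without control 1 they were at -0.13, -0.12 and -0.18. Only 3 lay above the controls, namely the sphingomyelinase Smpd5 at 0.18, the cytochrome c oxidase subunit Cox8c at 0.13 and the meiotic gene Kctd19 at 0.08. The differences below these were slight, with the chaperonin subunit Tcp1 at -0.09, the general transcription factor Gtf2b at -0.05 and the RNA exonuclease Rexo2 at -0.04. The 3 markers with the most counts had small fold changes. Tdrd6, a component of germ-cell RNA granules, had a log2 fold change of -0.02, the meiotic chaperone Hspa2 of -0.01 and Cmtm2a of 0.01, and all 3 had overlapping groups and changed sign with a control left out.

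Spermatid markers were shifted the other way, and the transition proteins were among the higher ones. Tnp1 was at 1724, 2316 and 2092 CPM in the controls and 2673, 2309 and 2652 CPM after 14 days. The groups overlapped, since 14-day replicate 2 was just below control 2, and the log2 fold change was 0.32 (SE 0.12, unadjusted p = 0.0322, adjusted p = 0.375 in edgeR). Tnp2 was at 1001, 1337 and 1306 CPM against 1523, 1414 and 1845 CPM (log2 fold change 0.39, SE 0.14, adjusted p = 0.371 in edgeR). Its groups did not overlap. Control 1 was the lowest library for both genes, and without it the values were 0.21 for Tnp1 and 0.28 for Tnp2.

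The highest spermatid fold changes with groups apart were those of Ccdc27 and Cdkn1c. Ccdc27 was at 36.3, 38.2 and 32.9 CPM against 52.3, 52.4 and 48.0 CPM (log2 fold change 0.51, SE 0.08, unadjusted p = 0.000321, adjusted p = 0.159 in edgeR). It had the smallest p of all 578 markers, and its DESeq2 adjusted p was 0.000149. Cdkn1c, the cyclin-dependent kinase inhibitor p57, was at 5.35, 5.23 and 5.38 CPM against 7.31, 6.87 and 8.53 CPM (log2 fold change 0.51, adjusted p = 0.279 in edgeR). Its control values lay close together and every 14-day library was above them. Got1l1, a relative of aspartate aminotransferase, was at 21.7, 24.3 and 23.96 CPM against 29.7, 29.8 and 29.6 CPM, a log2 fold change of 0.35. Fam53c followed at 0.35 and Ctag2 at 0.37. DESeq2 adjusted p-values were under 0.05 for 4 of 385 spermatid markers, Ccdc27, Got1l1 (0.0399), Fam53c (0.0451) and Tssk6 (0.0485). Over all classes this held for 5 of 578 markers. Among all features to which DESeq2 gave an adjusted p it held for 2.13%, a larger share.

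Few spermatid markers were lower. Glul, glutamine synthetase, was at 1504, 1242 and 1237 CPM against 1141, 1083 and 1135 CPM (log2 fold change -0.25, adjusted p = 0.372 in edgeR), with control 1 the highest, and the fold change was -0.14 without it. Bcas2, a splicing factor subunit, had a log2 fold change of -0.22, and Syce2, a central element protein of the synaptonemal complex, of -0.25. All 3 had groups that did not overlap. The class also holds genes known from other cells. Aif1, known from macrophages, had 0.20, and Actg2, a smooth muscle actin, ranged from 2.57 to 9.62 CPM with overlapping groups (log2 fold change -0.40, and 0.05 without control 1). Oaz3 and Odf1, the other markers with the most counts beside Tnp1, had overlapping groups and log2 fold changes of 0.12 and 0.10 (0.03 and 0.02 without control 1). Of the higher markers, the smallest differences with groups apart were those of Pdzk1ip1 (0.10), Rsbn1 (0.13) and Atp6v1e2 (0.13).

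The promoters of 3 higher spermatid markers and of Sycp3, a lower spermatocyte marker, are shown because each holds a motif that was searched. They were picked for the motif and do not link it to the direction of change. The cAMP response element TGACGTCA, which reads the same on both strands, is the site of CREM, a transcription factor of spermatids. It was searched in windows of 250 bases before to 50 bases after each gene's start in RefSeq annotation of build GRCr8, where 485 of the 578 markers had a window. Of all 33469 windows 1.83% held it. It was present in 17 of 323 spermatid markers (5.26%), 5 of 153 spermatocyte markers (3.27%) and 0 of 9 spermatogonial markers. Of markers that differed at an unadjusted p under 0.05, 4 of 33 higher (12.1%) and 1 of 10 lower (10%) held it. The 4 higher were Tnp1, Ccdc169, Zdbf2 and Nupl2. CACGTG, an E-box, also reads the same on both strands and was in 6.42% of all windows, 22 of 323 spermatid, 20 of 153 spermatocyte and 1 of 9 spermatogonial markers, and in 2 of 33 markers higher and 1 of 10 lower. Counted by gene, 2% of genes with a window held the first motif and 7.08% the E-box. Neither motif contains the other. The element starts 113 bases before the annotated start in Tnp1, 63 in Ccdc169 and 59 in Zdbf2, and the E-boxes of Sycp3 start 85 and 64 bases before it. Capitals mark the cAMP response element in the first 3 and the E-boxes in Sycp3, 5′ to 3′ in the direction of the gene.
Tnp1 promoter, chr9:82044229-82044528, minus strand: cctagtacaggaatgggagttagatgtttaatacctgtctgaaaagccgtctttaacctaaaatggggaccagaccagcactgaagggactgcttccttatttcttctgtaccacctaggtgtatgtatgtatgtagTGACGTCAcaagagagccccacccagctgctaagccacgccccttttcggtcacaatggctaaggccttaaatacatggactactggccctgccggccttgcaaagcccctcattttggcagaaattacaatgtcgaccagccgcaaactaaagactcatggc
Ccdc169 promoter, chr2:141471560-141471859, plus strand: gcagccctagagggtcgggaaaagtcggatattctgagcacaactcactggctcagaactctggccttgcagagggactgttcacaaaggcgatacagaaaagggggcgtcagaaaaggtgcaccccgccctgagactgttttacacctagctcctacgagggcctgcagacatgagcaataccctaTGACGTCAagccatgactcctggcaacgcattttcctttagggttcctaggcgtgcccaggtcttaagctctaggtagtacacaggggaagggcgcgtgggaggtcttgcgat
Zdbf2 promoter, chr9:72203348-72203647, plus strand: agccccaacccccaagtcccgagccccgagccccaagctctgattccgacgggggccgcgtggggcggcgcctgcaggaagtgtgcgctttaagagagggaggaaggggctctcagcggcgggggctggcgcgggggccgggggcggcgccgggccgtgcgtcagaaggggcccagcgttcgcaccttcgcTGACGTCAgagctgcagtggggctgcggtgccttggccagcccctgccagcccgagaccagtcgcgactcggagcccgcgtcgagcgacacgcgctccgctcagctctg
Sycp3 promoter, chr7:24761226-24761525, plus strand: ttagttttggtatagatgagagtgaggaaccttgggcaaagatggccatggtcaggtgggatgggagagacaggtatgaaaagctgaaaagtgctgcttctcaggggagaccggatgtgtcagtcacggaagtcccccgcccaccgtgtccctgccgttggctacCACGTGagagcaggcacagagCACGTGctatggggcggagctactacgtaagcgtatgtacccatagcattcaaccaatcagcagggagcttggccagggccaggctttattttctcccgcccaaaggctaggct

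A match is a description of these letters and not a bound site. Ccdc169, with the element, was at 62.4, 82.8 and 77.4 CPM in the controls and 98.7, 85.3 and 95.8 CPM after 14 days, a log2 fold change of 0.33. Zdbf2, an imprinted gene, was at 78.1, 83.2 and 77.3 CPM against 98.6, 100.4 and 86.8 CPM, a log2 fold change of 0.26. Both were higher in every 14-day library, with adjusted p-values of 0.363 and 0.295 in edgeR. Crem itself, looked up after these values were seen, had a log2 fold change of 0.03 with overlapping groups, and -0.01 without control 1.

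The same differences were read by what the markers do. In the list of meiotic chromosomes and synapsis, 14 of 17 markers were negative with a median of -0.08, against -0.01 over all features. At an unadjusted p under 0.05, 3 were lower (17.6%, against 4.86% of all features), namely Stra8, Tex19.1 and Sycp3. Stra8 had an unadjusted p of 0.393 in edgeR with its restored counts. In the cell cycle list of 26, 18 were negative with a median of -0.03, Ccne2 was lower, and Cdkn1c and Rcc1, the exchange factor of Ran (0.15), were higher. The piRNA and RNA granule list of 12 had 9 negative members and a median of -0.04, with Tex19.1 alone at an unadjusted p under 0.05. The shares lower at that p were 3.85% in the cell cycle and 8.33% in the piRNA list, against 4.86% of all features.

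Lists of spermatid structures had positive medians. The shares of members higher at an unadjusted p under 0.05 in the acrosome (6.9%), flagellum (9.38%), lipid (10%) and cell cycle (7.69%) lists were near the 7.19% of all features. All 6 members of histone replacement and sperm chromatin were positive with a median of 0.10, though only Tnp1 and Tnp2 had an unadjusted p under 0.05, and the other 4 lay between 0.08 and 0.10. Of 29 acrosome and sperm surface markers 22 were positive (median 0.09), with the acrosomal protein Eqtn (0.21) and the secreted phospholipase Pla2g10 (0.24) higher. Of 32 flagellum and axoneme markers 24 were positive (median 0.07), with the outer dense fibre proteins Odf3 (0.21) and Odf3l1 (0.21) and the sperm nuclear envelope protein Spag4 (0.20) higher. Energy metabolism held 12 positive of 17 (median 0.09), with Got1l1 and the mitochondrial quality gene Spata18 (0.17) higher and Cox7b2 lower. The shares higher were 33.3% in the sperm chromatin and 11.8% in the energy list, against 7.19% of all features. In the energy list 5.88% were lower, near the 4.86% of all features.

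The remaining lists had medians between 0.01 and 0.08. Of 20 lipid metabolism markers 16 were positive (median 0.08), with Pla2g10 and the sterol carrier relative Scp2d1 (0.20) higher. The chaperone and endoplasmic reticulum list of 19 was split, 10 positive and 9 negative with a median of 0.01, and only Hspa5 was at an unadjusted p under 0.05. In the ubiquitin and proteasome list 23 of 30 were positive (median 0.07), while its single member under that p, Psma8, was lower. The shares lower were 5.26% in the chaperone and 3.33% in the ubiquitin list, against 4.86% of all features. Of 22 kinases, phosphatases and calcium signalling genes 14 were positive (median 0.05), with the testis-specific kinase Tssk6 (0.26) higher. That is 4.55% of the list, under the 7.19% of all features. The transcription control list of 13 had no member under that p, the smallest being those of Rsbn1 (0.0778) and the TBP relative Tbpl1, at -0.14 (0.113), in edgeR. The lists overlap in members. Without control 1 the medians were -0.12 for meiotic chromosomes, -0.06 for the cell cycle, -0.08 for piRNA and RNA granules and 0.04 for sperm chromatin, and between -0.03 and 0.03 for the other 8 lists.

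**Figure D4:**
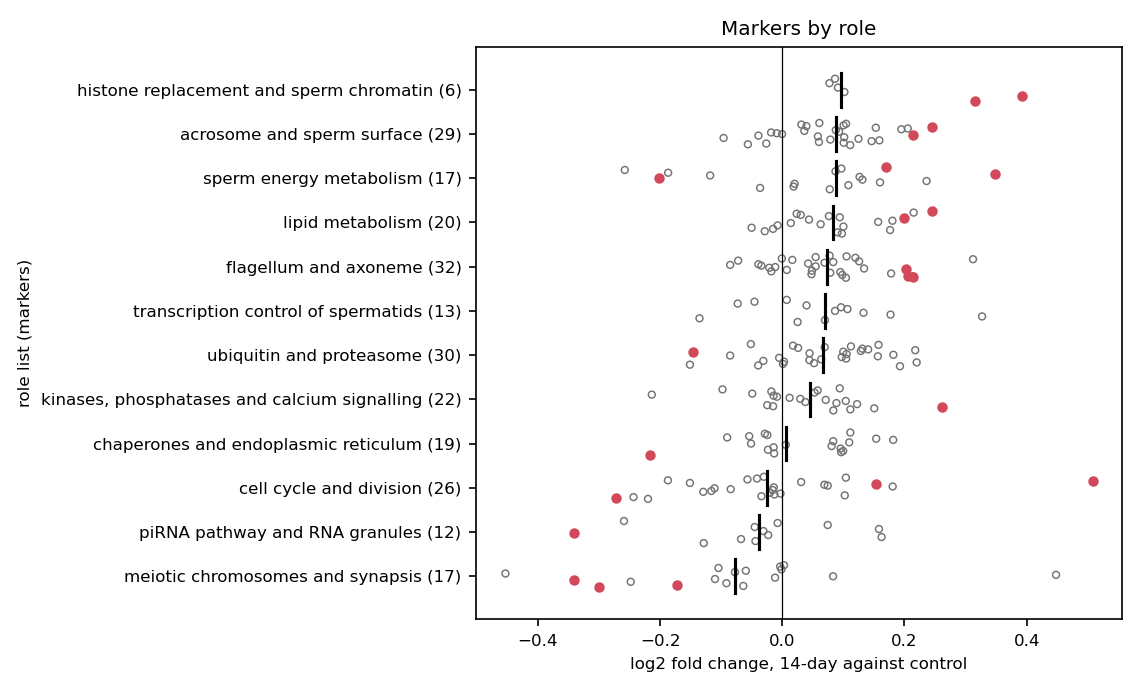
Log2 fold change of 14-day over control (horizontal axis) for each marker of 12 role lists (vertical axis, number of markers in brackets, points spread only for legibility). Filled red points had an unadjusted p under 0.05 in edgeR and black bars are medians, which run from -0.08 for meiotic chromosomes to 0.10 for sperm chromatin with all libraries (-0.12 and 0.04 without control 1).

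The marker table also names the stages at which each marker is found, often several per marker. Spermatogonial stages, with 2 to 8 markers each, had medians between -0.30 and -0.25. The most negative, -0.30 over 3 markers, is the value of Stra8 from its deposited counts. Stra8 is also 1 of the 2 markers of the smallest stage. Its log2 fold change was -0.12 with the restored counts, and stage medians were not computed with them. Within meiosis the most negative medians were in the leptotene stage, with -0.09 over 25 markers, and in early preleptotene, with -0.08 over 7 markers. Of the leptotene markers 7 lay entirely below the controls (28%, against 9.32% of all features). The remaining stages up to the meiotic divisions had medians between -0.05 and -0.02. The 3 round spermatid stages, with 306, 180 and 64 markers, had medians of 0.10 each. Without control 1 these became 0.04, 0.04 and 0.02, the spermatogonial stages lay between -0.31 and -0.11, and all stages from G1 to the meiotic divisions were between -0.13 and -0.06. Markers shared between stages make neighbouring values alike.

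**Figure D5:**
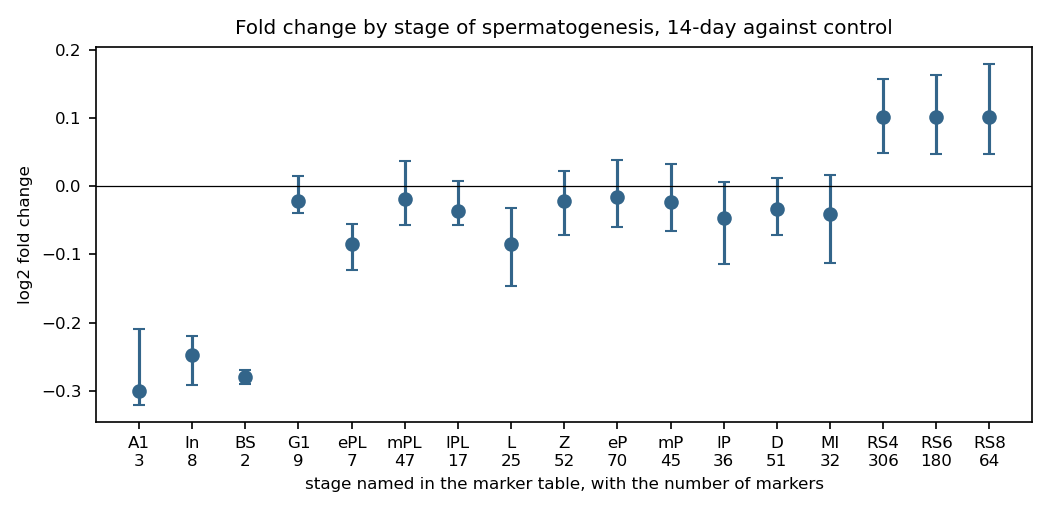
Median log2 fold change of 14-day over control (vertical axis) of the markers of each stage in the order of spermatogenesis, abbreviated as in the marker table and with the number of markers; bars run from the lower to the upper quartile of the markers and are not errors. Medians run from about -0.30 in spermatogonial stages to 0.10 in round spermatid stages with all libraries (0.02 to 0.04 without control 1). The value of about -0.30 rests on the deposited counts of Stra8. A marker may count in several stages.

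Set directly against the 3-day group, no feature passed an adjusted p of 0.05 in edgeR, and 13.4% had an unadjusted p under 0.05 (7.73% higher and 5.65% lower after 14 days). Of spermatid markers 178 of 385 were higher and 4 lower, with a median of 0.14. Of spermatocyte markers 21 of 181 were lower and 0 higher, and of spermatogonial markers 6 of 12 were lower, with medians of -0.04 and -0.18. The 6 include Stra8 with its deposited counts, and its restored counts were not compared with the 3-day group. Tnp1 was higher than after 3 days by 0.45 on the log2 scale (adjusted p = 0.131 in edgeR). These values share the 14-day libraries with the comparison above and are not independent of it.

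Against the 21-day group 3.05% of features had an unadjusted p under 0.05 (1.35% higher and 1.71% lower after 14 days), and 0 an adjusted one in edgeR. Here 4 of 385 spermatid markers were lower, 5 of 181 spermatocyte markers were higher and 1 lower, and 1 of 12 spermatogonial markers was higher. That marker was Stra8, at 0.33 with an unadjusted p of 0.0242 and an adjusted p of 0.999 in edgeR, on counts that disagree with the TPM in both groups, since Stra8 also deviated in the 21-day libraries, by -0.491%, 3.97% and 1.46%. The class medians of 14-day over 21-day were 0.06, 0.04 and -0.04 for spermatogonia, spermatocytes and spermatids.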

How the data were processed

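Total RNA of testis was sequenced by the study after removal of ribosomal RNA. Per the labels and the study's methods, reads were trimmed with Trimmomatic, aligned to Rnor_6.0 with HISAT2 and counted with HTSeq, with no versions given; the quantifier behind the effective lengths is not given in the sources used here. The authors deposited, for each library, the length, effective length, estimated count and TPM of 31715 transcripts. Estimated counts were rounded to whole numbers. Of the markers, 424 matched a single transcript, 150 a run of transcripts that were summed, 3 a pair of runs, and Piwil1 by counts alone.

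Groups were fitted with edgeR 4.0.16 (R 4.3.3) with TMM, filterByExpr (minimum 10 counts) and the quasi-likelihood test on the libraries compared alone. p-values were adjusted over all features tested (Benjamini-Hochberg). CPM used TMM factors, and DESeq2 1.42.0 was an alternative. Scripts were checked on simulated data.

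The markers, lists and tests were chosen with earlier results of these data known. Named genes were Stra8, Sycp3, Piwil1, Tnp1 and Tnp2, all spermatogonial markers, the 6 highest and 6 lowest markers with groups apart in the other classes, the 3 with most counts per class, list members under an unadjusted p of 0.05 (or the 2 smallest), and extreme transcripts; Ccdc169, Zdbf2, Nupl2, Crem, Aif1 and Actg2 were added after their values were seen. Promoter sequences came from RefSeq, build GRCr8. Figures used matplotlib 3.10.9.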

Additional observations from a re-analysis of the deposited data

Results flagged for a closer look

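In 4 of 578 markers (0.692%) every 14-day library lay on the opposite side of all controls from every 3-day library, as did 42 of the 21058 features tested (0.199%). On CPM scaled over all 12 libraries, Stra8 was at 11.3, 9.64 and 9.69 after 3 days, 8.75, 9.31 and 9.05 in controls and 7.36, 7.01 and 7.58 after 14 days. The direct 14-day over 3-day log2 fold change was -0.48 (unadjusted p = 0.00261, adjusted p = 0.236 in edgeR). With its restored counts the 3rd 14-day library was above all controls, so the opposite sides rest on the deposited counts. Ccne2 was at 68.4, 70.9 and 76.8 after 3 days and 60.6, 55.8 and 52.0 after 14 days, with controls of 67.2, 68.38 and 68.39, so that the lowest 3-day value (68.43) was above the highest control by a very small margin, and the direct difference was -0.36 (unadjusted p = 0.00136, adjusted p = 0.203 in edgeR).

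In the other direction, Tssk6 was at 134, 161 and 142 after 3 days, 190, 169 and 168 in controls and 221, 209 and 199 after 14 days, a direct difference of 0.53 (unadjusted p = 0.000148, adjusted p = 0.157 in edgeR). Spata18 was at 867, 986 and 959 after 3 days, 1020, 1160 and 1091 in controls and 1265, 1171 and 1229 after 14 days, a direct difference of 0.38 (unadjusted p = 0.000161, adjusted p = 0.16 in edgeR). None of the 4 passed the adjusted threshold. All 4 were picked because their 14-day and 3-day values lie fully apart. Their direct p-values are low by that choice and give no further support.

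The TPM column, used here for checks and alternatives alone, had totals short of the common total of the scale by 12.01, 9.999 and 18.0 in 14-day libraries 1 to 3, and by at most 0.0095 in a control library. The 21-day libraries 2 and 3 were short by 3.05 and 3.97. TPM and counts disagreed for Stra8 and Piwil1 in the 14-day libraries and for Stra8 in the 21-day libraries. The cause was not tested.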

How the results depend on the processing

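The cause of each move below was not tested. With all libraries, 0 features had an adjusted p under 0.05 in edgeR (2538 at an unadjusted p under 0.05). All 12 libraries in one fit gave 12 such features and DESeq2 360. Leaving out single libraries gave 0 to 2 such features, and 641 to 1651 features lower at an unadjusted p under 0.05. Spermatogonial markers lower at that p were 4 with all libraries, 2 with the replicate block, 7 with the markers alone and 2 to 6 with a library left out. Spermatocyte markers lower were 5, then 10 with total count scaling, 8 with all 12 libraries, 3 with the replicate block, 30 with the markers alone and 2 to 20 with a library left out. Spermatocyte markers higher were 0, and 1 with total count scaling, all 12 libraries or DESeq2, and 0 to 5 with a library left out. Spermatid markers higher were 41, then 68 with total count scaling and 16 to 98 with a library left out; those lower were 2, 1 with total count scaling or DESeq2, 4 with transcripts not summed and 0 to 4 with a library left out. Deviations of same-numbered samples from their group means correlated weakly (0.0049, 0.0681 and 0.0938). With 3 samples per group this does not settle whether the replicate numbers pair the samples. Ccnd1 turned positive without control 1 and ranged from -0.38 to 0.16 with a library left out, and Gtf2b was at 0.0115 with transcripts not summed. Fold changes near 0 changed sign as well. With a library left out, Tdrd6 ranged from -0.077 to 0.055, Hspa2 from -0.056 to 0.024, Cmtm2a from -0.061 to 0.083, Crem from -0.015 to 0.073 and Actg2 from -0.75 to 0.048. On log2(TPM + 1) means Tdrd6 was at 0.0018 and Hspa2 at 0.0034, with the markers alone Cmtm2a was at -0.047 and Crem at -0.0301, with no filter Cmtm2a was at -5.05e-05, and with transcripts not summed Crem was at -0.0037. Among the other genes named no sign changed, but few could cross the adjusted threshold in either direction, so the calls say little about stability. In DESeq2, 5 of 578 markers had an adjusted p under 0.05, against 2.13% of all features to which it gave one. The median SE was 0.41 over the 5265 features with the fewest counts and 0.08 over those with the most.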
